A study of Homo sapiens with 12 samples.

Results

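Sprouty proteins (SPRY1, SPRY2 and SPRY4) and the Sprouty-related EVH1-domain proteins (SPRED1, SPRED2 and SPRED3) are inhibitors of the RAS-RAF-MEK-ERK cascade that growth factor receptors switch on. Several of them are themselves induced by ERK signaling, so that they act as negative feedback. SPRED proteins bring the RAS GTPase-activating protein neurofibromin (NF1) to the membrane, whereas Sprouty proteins bind adaptors and ubiquitin ligases such as GRB2 and CBL. The 6 genes were chosen by name from the 24331 features of an RNA-seq expression table, and each matched 1 feature. SPRY3 is not among the genes chosen.

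The libraries came from MDA-MB-231, a human triple-negative breast cancer cell line. Wild-type (WT) cells were compared with ΔCRE cells (KO in the labels), in which CRISPR/Cas9 had removed NFAT and NF-κB sites of the core-regulatory element in the ETS1 promoter. Both were unstimulated (0 h) or stimulated for 6 or 24 h with PMA, a phorbol ester that activates protein kinase C and RASGRP exchange factors, and Ionomycin, a calcium ionophore. The 6 groups held 2 libraries each, 12 in all. How many clones the ΔCRE libraries represent is not given in the sources used here, so an effect of the deletion cannot be told apart from a difference between clones. The p-values rest on the spread between libraries of the same group, pooled over the groups fitted and moderated across features.

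The deposited values are FPKM, by definition fragments per kilobase of transcript scaled to the mapped fragments of the library. Whether they were scaled further between libraries is not given in the sources used here. Replicate 1 of ΔCRE cells at 0 h stood apart. Its FPKM values summed to 1423335 against 566255 to 651080 in the other 11 libraries, and its correlation with replicate 2 of its group was 0.867 against 0.978 to 0.984 between the other replicate pairs. A list of 10 gut epithelium markers summed to 3497 FPKM there, with all 10 at 1 FPKM or more, against 3.38 to 5.30 FPKM in the other libraries, where only EPCAM and TFF3 reached 1 FPKM. All 6 markers of mesenchymal MDA-MB-231 cells were at 1 FPKM or more in every library. All tests below therefore rest on the other 11 libraries, in which ΔCRE cells at 0 h are represented by replicate 2 alone, assumed to vary like the other groups. Results with all 12 libraries are given for the 6 members only, not for ETS1 or the genes of the pathway lists. In that fit 20 of 11676 features were called between ΔCRE and WT cells at 6 h, and 17 at 24 h. The steps between the lowest values put the depth of the other 11 libraries between 0.73 and 1.19 times that of WT 0 h replicate 1.

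The targeted gene, ETS1, followed the labels. Its level was 24.0 and 23.7 FPKM in WT cells at 0 h, 139 and 145 FPKM at 6 h, and 36.2 and 39.7 FPKM at 24 h. ΔCRE cells had 16.5 FPKM in replicate 2 at 0 h (5.08 FPKM in replicate 1), 62.8 and 62.2 FPKM at 6 h, and 29.3 and 30.7 FPKM at 24 h. ETS1 was lower in ΔCRE cells at every time, with log2 differences of -0.51 (adjusted p = 0.0132), -1.17 (adjusted p = 2.0e-05) and -0.33 (adjusted p = 0.0153) at 0, 6 and 24 h.

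SPRY4 was the most abundant member. Over the 11 libraries its mean was 71.7 FPKM, against 32.3 FPKM for SPRY2, 22.7 FPKM for SPRED2, 8.95 FPKM for SPRY1, 6.46 FPKM for SPRED1 and 2.48 FPKM for SPRED3. Among the 11256 features with a mean of at least 1 FPKM, which were the ones tested, SPRY4 lay between percentiles 83.2 and 90.3 of FPKM in each library and SPRED3 between percentiles 1.94 and 20.7. SPRED3 was at or near 1 FPKM in unstimulated cells and passed the filter through its level in stimulated cells.

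**Figure D1:**
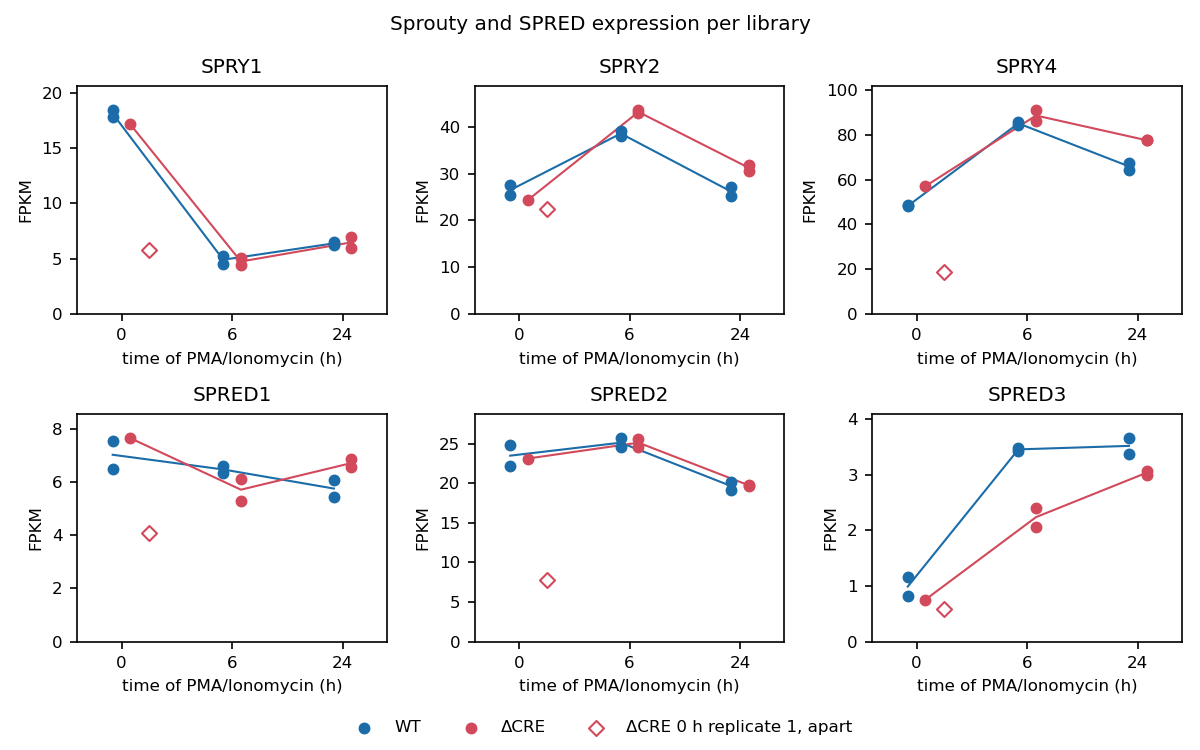
FPKM of the 6 genes in each library (vertical axis) against hours of PMA/Ionomycin (horizontal axis), with WT libraries in blue, ΔCRE libraries in red, lines through group means, and replicate 1 of ΔCRE cells at 0 h, left out of the means, as an open diamond. SPRY1 dropped from 17.2 to 18.4 FPKM before stimulation to at most 6.97 FPKM after it in both genotypes, while SPRY4, SPRY2 and SPRED3 peaked or rose with stimulation.

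To show what precedes the start of these genes, the 250 bases upstream of the outermost annotated start are given for SPRY1, which fell on stimulation, and for SPRY4, SPRY2 and SPRED3, which rose. The sequences are from RefSeq (GRCh38.p14), 5′ to 3′ on the strand of the gene, and all 6 members matched. They lie at chr4:123396545-123396794 (plus strand), chr5:142324248-142324497 (minus), chr13:80341127-80341376 (minus) and chr19:38388447-38388696 (plus). Capitals mark GGAA on either strand, the core that ETS-family factors such as ETS1 bind.
SPRY1: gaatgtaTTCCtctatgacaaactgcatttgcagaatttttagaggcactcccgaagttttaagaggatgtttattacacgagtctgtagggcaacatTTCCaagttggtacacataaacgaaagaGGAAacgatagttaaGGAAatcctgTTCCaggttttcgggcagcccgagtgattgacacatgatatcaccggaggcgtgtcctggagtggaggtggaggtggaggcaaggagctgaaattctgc
SPRY4: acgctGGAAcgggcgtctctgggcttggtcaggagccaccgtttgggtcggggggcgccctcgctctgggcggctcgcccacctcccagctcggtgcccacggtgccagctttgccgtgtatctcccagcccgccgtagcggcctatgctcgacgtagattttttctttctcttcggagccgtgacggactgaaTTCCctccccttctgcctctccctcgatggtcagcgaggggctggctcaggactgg
SPRY2: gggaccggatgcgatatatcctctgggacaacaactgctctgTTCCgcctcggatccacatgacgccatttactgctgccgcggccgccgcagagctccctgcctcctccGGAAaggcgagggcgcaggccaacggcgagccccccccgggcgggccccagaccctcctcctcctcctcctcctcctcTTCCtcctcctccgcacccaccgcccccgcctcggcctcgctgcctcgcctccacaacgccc
SPRED3: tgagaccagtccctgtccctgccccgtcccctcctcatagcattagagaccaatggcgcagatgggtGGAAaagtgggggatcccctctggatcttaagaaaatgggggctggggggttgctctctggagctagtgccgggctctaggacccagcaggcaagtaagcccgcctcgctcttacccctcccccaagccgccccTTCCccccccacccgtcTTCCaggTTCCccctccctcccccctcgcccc

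GGAA occurred 5 times before SPRY1, 2 times before SPRY4, 3 times before SPRY2 and SPRED1, and 4 times before SPRED2 and SPRED3. It is common: 92.7% of 35116 promoters of this length held it, with a median of 3 matches. The promoter of SPRY1 had a GC content of 45.6%, and those of the other members 58.8% to 78.4%. The longer ETS sequence CCGGAAG, found in 8.52% of promoters, the AP-1 sequence TGANTCA (6.57%) and the cAMP response element TGACGTCA (1.65%) were searched on both strands, where CCGGAAG contains GGAA. None of them was in these windows. Upstream of other annotated starts of the members, CCGGAAG occurred once, 67 bases before the second start of SPRY1, and TGANTCA once, 60 bases before the second start of SPRED3. Which start the cells used was not analysed here, and these windows were not placed against the hg19 features measured.

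In WT cells stimulated for 6 h, SPRY4, SPRY2 and SPRED3 rose and SPRY1 fell, whereas SPRED1 and SPRED2 did not pass the test. Thus 4 of the 6 members were called at an adjusted p under 0.05, 3 of them higher. Among all features tested, 44.4% were called, 23.3% higher and 21.1% lower, so that change as such was common. SPRED3 is counted although it passed the filter through stimulated libraries, and at a mean of at least 5 FPKM, where it was not tested, 3 members were called. The median log2 fold change was 0.31 over the 6 members, SPRED3 included, and -0.0014 over all features. Without SPRED3 the middle member was SPRED2 (0.095), which was not called. Member values ran from -1.70 for SPRY1 to 1.17 for SPRED3. At 24 h against 0 h, 5 members were called (54.6% of all features), with SPRY4 and SPRED3 higher (26.5%) and SPRY1, SPRED1 and SPRED2 lower (28.2%). From 6 to 24 h, 4 were called (46.8%), with SPRY1 higher (20.5%) and SPRY2, SPRY4 and SPRED2 lower (26.3%). With all 12 libraries the calls in WT cells at 6 h were SPRY1, SPRY2 and SPRED3, where 7.34% of all features were called. SPRED3 alone was called at 24 h (10.5% of all features), and SPRY2 alone from 6 to 24 h (4.98%).

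These counts depend on how libraries were put on a common scale. Rescaling each library to the same sum, as TPM, moved the median of all features at 6 h against 0 h to -0.12 in WT and -0.13 in ΔCRE cells. It took the share of higher features among those called from 52.5% to 35% in WT cells and from 56.4% to 31.8% in ΔCRE cells. From 6 to 24 h it took that share from 43.7% to 64.3% in WT cells and from 44.6% to 60.7% in ΔCRE cells. On that scale the log2 fold changes at 6 h in WT cells were -1.88 for SPRY1, 0.69 for SPRY4, 0.41 for SPRY2 and 1.27 for SPRED3, all still called.

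**Figure D2:**
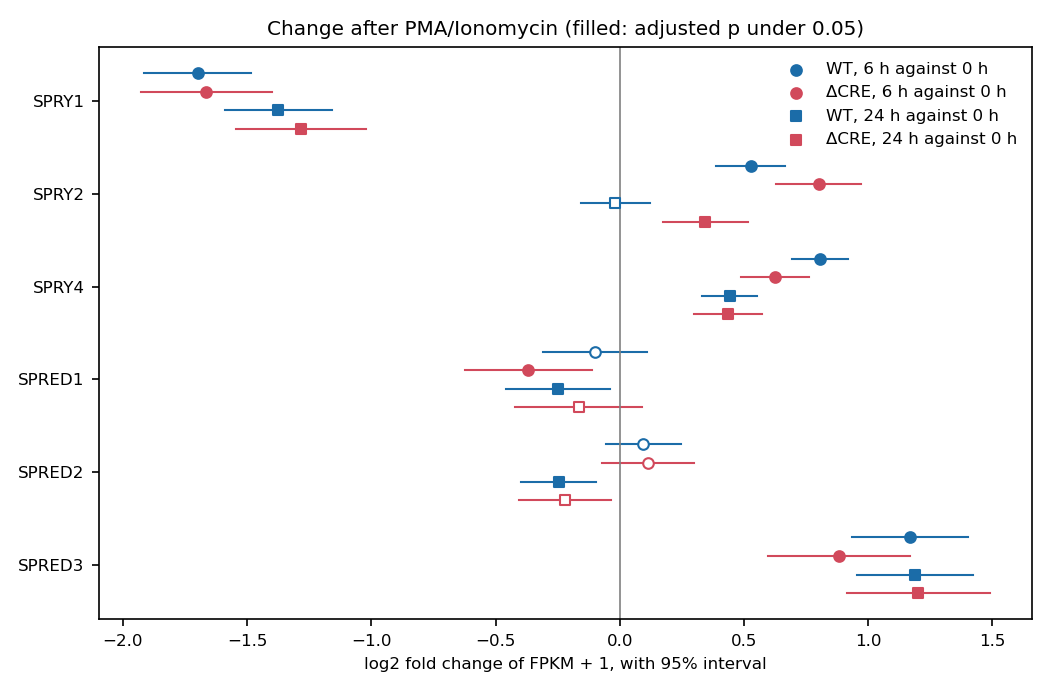
Log2 fold change of FPKM + 1 against unstimulated cells (horizontal axis) for the 6 genes (vertical axis) at 6 h (circles) and 24 h (squares) in WT (blue) and ΔCRE cells (red), with bars for the 95% interval and filled symbols for an adjusted p under 0.05. SPRY1 lay below 0 and SPRY4 and SPRED3 above 0 in all 4 comparisons, and SPRED1 and SPRED2 stayed within 0.37 of 0.

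SPRY1, an inhibitor of signaling downstream of fibroblast growth factor and other receptor tyrosine kinases, fell most. The gene feature spans chr4:124317950-124324915 (hg19, plus strand). WT cells had 17.8 and 18.4 FPKM at 0 h, 5.27 and 4.53 FPKM at 6 h, and 6.27 and 6.49 FPKM at 24 h. ΔCRE cells had 17.2 FPKM in replicate 2 at 0 h, 4.42 and 5.06 FPKM at 6 h, and 5.98 and 6.97 FPKM at 24 h. Unstimulated and stimulated libraries did not overlap in either genotype, and replicate 1 of ΔCRE cells at 0 h, at 5.80 FPKM, lay among the stimulated libraries. In WT cells the mean at 6 h was 27% of that at 0 h (4.90 ± 0.53 against 18.1 ± 0.41 FPKM, SD, n = 2 each), a log2 fold change of -1.70 (SE 0.094, adjusted p = 3.1e-06), and at 24 h it was 35.2% (log2 fold change -1.37, SE 0.094, adjusted p = 9.2e-06). In ΔCRE cells the log2 fold changes were -1.66 (adjusted p = 1.8e-05) at 6 h and -1.28 (adjusted p = 6.6e-05) at 24 h.

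From 6 to 24 h SPRY1 regained a little. The log2 fold change was 0.33 for WT (adjusted p = 0.0207) and 0.38 for ΔCRE cells (adjusted p = 0.0098). The call in WT cells was lost without WT 6 h replicate 2 (0.23, adjusted p = 0.138) and without either WT library at 24 h (adjusted p = 0.0655 and 0.0917). That in ΔCRE cells was lost without ΔCRE 6 h replicate 1 (adjusted p = 0.065) or ΔCRE 24 h replicate 2 (adjusted p = 0.0696). When all 12 libraries were fitted, the fall in WT cells at 24 h had an adjusted p of 0.0568, and the falls in ΔCRE cells were -0.96 (adjusted p = 0.143) and -0.58 (adjusted p = 0.307).

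SPRY4, commonly used as a transcriptional readout of ERK output, moved the other way. It lies at chr5:141689992-141704620 (hg19, minus strand). WT cells had 48.1 and 48.5 FPKM at 0 h, 85.8 and 84.7 FPKM at 6 h, and 64.6 and 67.4 FPKM at 24 h. ΔCRE cells had 57.2 FPKM in replicate 2 at 0 h (18.6 FPKM in replicate 1), 91.0 and 86.5 FPKM at 6 h, and 77.6 and 77.8 FPKM at 24 h. All 3 times were separate in each genotype, with the peak at 6 h. In WT cells SPRY4 rose 1.77-fold at 6 h (log2 fold change 0.81, SE 0.049, adjusted p = 5.4e-06) and stood 1.37-fold higher at 24 h (0.44, SE 0.049, adjusted p = 1.3e-04). In ΔCRE cells the log2 fold changes were 0.63 (adjusted p = 1.3e-04) and 0.44 (adjusted p = 6.6e-04).

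The decline of SPRY4 from 6 to 24 h was -0.37 in WT (adjusted p = 5.2e-04) and -0.19 in ΔCRE cells (adjusted p = 0.0121). The latter was lost after quantile normalization (-0.03, adjusted p = 0.685), after rescaling to TPM (-0.09, adjusted p = 0.204), and without ΔCRE 6 h replicate 1 (adjusted p = 0.0659) or ΔCRE 24 h replicate 1 (adjusted p = 0.054), and in a fit of these libraries alone (adjusted p = 0.0583). No change of SPRY4 was called with all 12 libraries, with adjusted p = 0.34 for WT cells at 6 h.

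SPRY2, which binds CBL and other ubiquitin ligases, showed a transient rise in WT cells. It lies at chr13:80910112-80915086 (hg19, minus strand). WT cells had 25.5 and 27.5 FPKM at 0 h, 39.2 and 37.9 FPKM at 6 h, and 25.1 and 27.2 FPKM at 24 h. ΔCRE cells had 24.3 FPKM in replicate 2 at 0 h (22.3 FPKM in replicate 1), 42.8 and 43.5 FPKM at 6 h, and 31.8 and 30.6 FPKM at 24 h. The WT libraries at 0 and 24 h overlapped, and those at 6 h lay above both. SPRY2 rose 1.46-fold at 6 h in WT cells (log2 fold change 0.53, SE 0.061, adjusted p = 2.2e-04) and fell again by 24 h (-0.55, adjusted p = 2.1e-04), where its difference from 0 h was -0.02 (95% interval -0.16 to 0.12). In ΔCRE cells it rose 1.77-fold at 6 h (0.80, SE 0.074, adjusted p = 1.1e-04), fell from 6 to 24 h (-0.46, adjusted p = 4.5e-04), and was above 0 h at 24 h (0.35, adjusted p = 0.00638). All of these calls held with all 12 libraries.

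Summed over SPRY1, SPRY2 and SPRY4, Sprouty expression was 91.4 and 94.4 FPKM in WT cells at 0 h, 130 and 127 FPKM at 6 h, and 96.0 and 101 FPKM at 24 h. In ΔCRE cells the sum was 98.7 FPKM in replicate 2 at 0 h, 138 and 135 FPKM at 6 h, and 115 FPKM in both libraries at 24 h. In unstimulated WT cells, replicates 1 and 2 alike, 19.5% of it was SPRY1, which dropped to 4.05% and 3.56% by 6 h and stood at 6.53% and 6.43% by 24 h. SPRY4 made up 52.6% and 51.4% at 0 h and 65.9% to 67.3% in stimulated WT cells, while SPRY2 stayed between 26.2% and 30.1%.

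**Figure D3:**
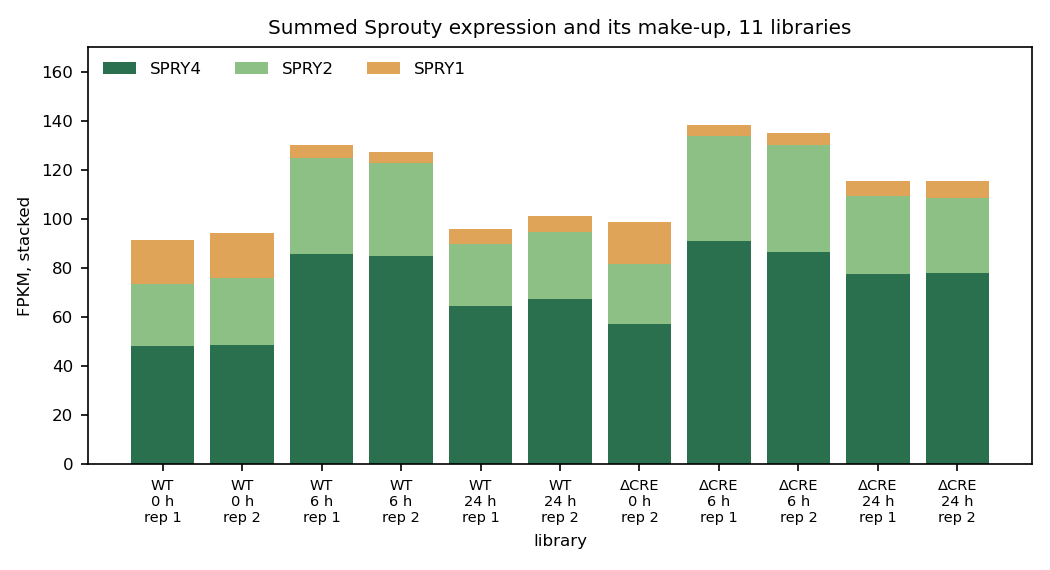
Stacked FPKM of SPRY4, SPRY2 and SPRY1 (vertical axis) in the 11 libraries (horizontal axis, rep for replicate), without replicate 1 of ΔCRE cells at 0 h. The sum was highest at 6 h (127 to 138 FPKM), and SPRY1 took up a visible share only at 0 h.

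SPRED3, the member with the lowest level, rose with stimulation from a low level. Its feature spans chr19:38880840-38890523 (hg19, plus strand). In GENCODE 44 mapped to GRCh37 the gene starts before this feature, which runs past the end of the gene. WT cells had 1.16 and 0.819 FPKM at 0 h, 3.48 and 3.43 FPKM at 6 h, and 3.38 and 3.66 FPKM at 24 h. ΔCRE cells had 0.756 FPKM in replicate 2 at 0 h (0.584 FPKM in replicate 1), 2.41 and 2.07 FPKM at 6 h, and 3.001 and 3.08 FPKM at 24 h. WT cells reached their plateau by 6 h, and ΔCRE libraries at 6 h lay between those at 0 and 24 h. The means rose 3.49-fold at 6 h and 3.55-fold at 24 h in WT cells. On the log2 scale of FPKM + 1, which understates changes of low genes, the fold changes were 1.17 (SE 0.10, adjusted p = 4.6e-05) and 1.19 (SE 0.10, adjusted p = 3.4e-05), and with a pseudocount of 0.1 they were 1.72 and 1.75. In ΔCRE cells they were 0.88 at 6 h (SE 0.13, adjusted p = 0.00119) and 1.20 at 24 h (SE 0.13, adjusted p = 1.6e-04), and all 4 calls held with all 12 libraries. Since SPRED3 passed the filter through the stimulated libraries, the test was also run with no filter, where the adjusted p values were 2.8e-04 and 2.0e-04 in WT and 0.00361 and 7.5e-04 in ΔCRE cells.

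From 6 to 24 h SPRED3 rose by 0.32 in ΔCRE cells (adjusted p = 0.0302) and differed by 0.02 in WT cells (95% interval -0.22 to 0.25). The call in ΔCRE cells was lost without ΔCRE 6 h replicate 2 (0.24, adjusted p = 0.15), ΔCRE 24 h replicate 1 (adjusted p = 0.0895) or ΔCRE 24 h replicate 2 (adjusted p = 0.107), after quantile normalization (0.19, adjusted p = 0.127) and with a pseudocount of 0.1 (adjusted p = 0.0535). SPRED3 made up 2.47% to 3.9% of the summed SPRED expression in WT cells at 0 h and 9.74% to 12.2% after stimulation.

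SPRED2 was the main SPRED gene, with 66.4% to 76.9% of the summed SPRED expression in the 11 libraries. Its feature spans chr2:65537985-65659656 (hg19, minus strand) and overlaps an unnamed lncRNA on the same strand. WT cells had 22.2 and 24.8 FPKM at 0 h, 25.7 and 24.6 FPKM at 6 h, and 19.1 and 20.2 FPKM at 24 h. ΔCRE cells had 23.1 FPKM in replicate 2 at 0 h (7.80 FPKM in replicate 1), 25.6 and 24.6 FPKM at 6 h, and 19.8 and 19.6 FPKM at 24 h. Libraries at 0 and 6 h overlapped in WT cells, and those at 24 h were the lowest in both genotypes. SPRED2 fell from 6 to 24 h in WT (-0.34, SE 0.066, adjusted p = 0.00338) and in ΔCRE cells (-0.33, SE 0.066, adjusted p = 0.00337).

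Against 0 h, SPRED2 was lower at 24 h in WT cells (-0.25, adjusted p = 0.013), a call lost without WT 0 h replicate 2 (-0.17, adjusted p = 0.0782) or WT 24 h replicate 1 (-0.21, adjusted p = 0.0845), and the value in ΔCRE cells was -0.22 (adjusted p = 0.0584), called at a mean of at least 5 FPKM (adjusted p = 0.0495) and without either WT library at 0 h (adjusted p = 0.0327 each). At 6 h its log2 fold changes were 0.10 in WT (adjusted p = 0.273) and 0.11 in ΔCRE cells (adjusted p = 0.328), and both were -0.02 after rescaling to TPM. The fall from 6 to 24 h in WT cells was -0.23 (adjusted p = 0.0525) on that scale. No change of SPRED2 was called with all 12 libraries.

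SPRED1, the gene mutated in Legius syndrome and the partner through which NF1 reaches the membrane, changed little with stimulation. It lies at chr15:38545052-38649450 (hg19, plus strand). WT cells had 6.51 and 7.55 FPKM at 0 h, 6.59 and 6.36 FPKM at 6 h, and 5.46 and 6.06 FPKM at 24 h. ΔCRE cells had 7.66 FPKM in replicate 2 at 0 h (4.08 FPKM in replicate 1), 5.30 and 6.13 FPKM at 6 h, and 6.58 and 6.86 FPKM at 24 h. WT libraries at 6 h overlapped those at 0 h. A decrease was called at 24 h in WT cells (-0.25, SE 0.091, adjusted p = 0.0477) and at 6 h in ΔCRE cells (-0.37, SE 0.11, adjusted p = 0.0379). The former was lost without WT 0 h replicate 2 (-0.15, adjusted p = 0.256), without any 1 WT library at 6 or 24 h, without either ΔCRE library at 24 h, and under 4 other settings (adjusted p = 0.0581 to 0.0978). The latter was lost without ΔCRE 6 h replicate 1 (-0.28, adjusted p = 0.137), without either WT library at 6 h, without either ΔCRE library at 24 h, with no filter (adjusted p = 0.0702) and in a separate fit (adjusted p = 0.117). Neither was called with all 12 libraries, where the ΔCRE value at 6 h was 0.015.

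In ΔCRE cells 5 members were called at 6 h against 0 h, SPRY2, SPRY4 and SPRED3 higher and SPRY1 and SPRED1 lower, where 29.8% of all features were called, 16.8% higher and 13% lower. At 24 h against 0 h, 4 were called, SPRY2, SPRY4 and SPRED3 higher and SPRY1 lower (41.5% of all features, 20.6% higher and 21% lower). From 6 to 24 h, 5 were called, SPRY1 and SPRED3 higher and SPRY2, SPRY4 and SPRED2 lower (49.6%, 22.1% higher and 27.5% lower). All values against 0 h rest on a single ΔCRE library. With all 12 libraries SPRY2 and SPRED3 were called at 6 h (8.66% of all features) and at 24 h (11.2%), and SPRY2 from 6 to 24 h (7.24%).

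To ask whether the promoter deletion altered these genes, ΔCRE cells were compared with WT cells at each time. No member was called at 0 h, where limma called 1.69% of all features. Without adjustment, 1 of the 6, SPRY4, was under 0.05 (log2 difference 0.24, adjusted p = 0.0953), as were 1689 of the 11256 features. The SPRY4 difference was -0.54 with all 12 libraries, in which replicate 1 of ΔCRE cells had 18.6 FPKM. The 95% intervals at 0 h were -0.34 to 0.19 for SPRY1, -0.29 to 0.06 for SPRY2, -0.15 to 0.37 for SPRED1, -0.20 to 0.17 for SPRED2 and -0.46 to 0.11 for SPRED3. That of SPRY4 was 0.10 to 0.38.

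At 6 h SPRED3 was the only member called, among 9.83% of all features called and 6.22% called lower. Its mean was 2.24 ± 0.24 FPKM in ΔCRE against 3.46 ± 0.037 FPKM in WT cells (SD, n = 2 each), 64.8% of the WT level, and the libraries of the genotypes did not overlap. The log2 difference was -0.46 (SE 0.10, 95% interval -0.70 to -0.23, adjusted p = 0.0265). The call was lost without WT 6 h replicate 1 (-0.45, adjusted p = 0.138), WT 6 h replicate 2 (-0.47, adjusted p = 0.112) or ΔCRE 6 h replicate 2 (-0.39, adjusted p = 0.145), and with all 12 libraries (adjusted p = 0.58). Relative depth at 6 h was 0.73 and 0.82 in the ΔCRE libraries and 1.04 and 1.06 in the WT libraries. Its part in the SPRED3 call was not tested. At 24 h the difference of SPRED3 was -0.16 (adjusted p = 0.421). SPRY2 was 0.16 higher at 6 h (adjusted p = 0.152), and the 95% interval of SPRY1 was -0.25 to 0.18.

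At 24 h SPRY2 and SPRY4 were higher in ΔCRE cells, against 6.33% of all features called and 2.35% called higher. SPRY2 was 31.2 ± 0.87 FPKM in ΔCRE and 26.1 ± 1.5 FPKM in WT cells (SD, n = 2 each), a 1.19-fold difference (log2 0.25, SE 0.061, 95% interval 0.11 to 0.39, adjusted p = 0.0497). SPRY4 was 77.7 ± 0.15 FPKM against 66.0 ± 2.0 FPKM, a 1.18-fold difference (log2 0.23, SE 0.049, 95% interval 0.12 to 0.34, adjusted p = 0.029). A SPRY4 difference of like size was present at 0 h (log2 0.24), where ΔCRE cells were 1 library. For both genes the ΔCRE libraries at 24 h lay above the WT libraries. Both calls were lost without any 1 WT or ΔCRE library at 24 h (log2 differences 0.19 to 0.30 for SPRY2 and 0.20 to 0.26 for SPRY4), without either WT library at 6 h, after rescaling to TPM (adjusted p = 0.133 and 0.0607), when the 4 libraries were fitted alone (adjusted p = 0.119 and 0.0972), and with all 12 libraries. That of SPRY2 was also lost without either ΔCRE library at 6 h (adjusted p = 0.0726 and 0.0721), with a pseudocount of 0.1 (adjusted p = 0.0521), with no filter (adjusted p = 0.0558) and without the trend of the variance (adjusted p = 0.0694). Rescaling took the share of higher features among those called at 24 h from 37.2% to 24.7%.

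**Figure D4:**
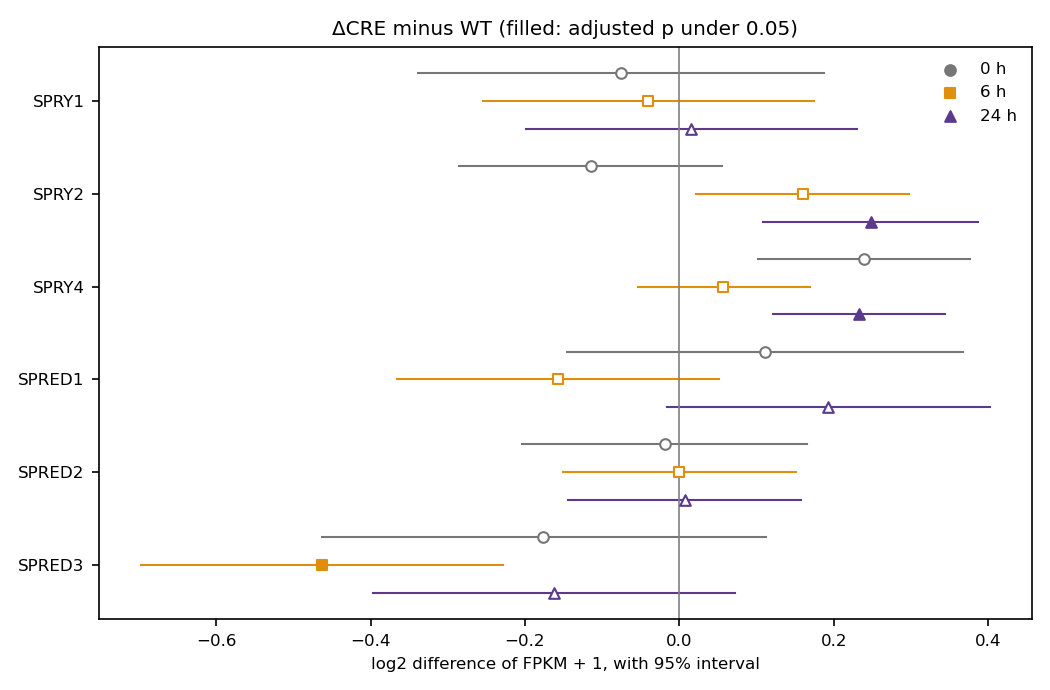
Log2 difference of FPKM + 1, ΔCRE minus WT cells (horizontal axis), for the 6 genes (vertical axis) at 0 h (circles), 6 h (squares) and 24 h (triangles), with bars for the 95% interval and filled symbols for an adjusted p under 0.05. The filled symbols are SPRED3 at 6 h (-0.46) and SPRY2 and SPRY4 at 24 h (0.25 and 0.23).

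Whether stimulation changed the members differently in the 2 genotypes was tested directly as the difference between the changes. None of the 6 was called for any of the 3 time comparisons by limma, where 0.267%, 0.275% and 0.16% of all features were. Without adjustment 2 members were under 0.05 for 6 h against 0 h, SPRY2 (0.27, adjusted p = 0.482) and SPRY4 (-0.18, adjusted p = 0.609), 1 for 24 h against 0 h, SPRY2 (0.36, adjusted p = 0.374), and 2 for 24 h against 6 h, SPRY4 (0.18, adjusted p = 0.676) and SPRED1 (0.35, adjusted p = 0.645). Of the 11256 features, 909, 924 and 786 were under 0.05 without adjustment in these 3 comparisons. For SPRY1, the ΔCRE change at 6 h exceeded the WT change by 0.04 (95% interval -0.30 to 0.38). For ETS1 the difference at 6 h was -0.67 (adjusted p = 0.0291).

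The genes of the surrounding pathway were taken from lists. Of 17 genes that ERK signaling induces or that restrain it in feedback, 8 rose, 2 fell and 7 were not called in WT cells at 6 h (median log2 fold change 0.26), where 44.4% of all features were called, 23.3% higher and 21.1% lower. The largest increases were those of DUSP5, a nuclear ERK phosphatase (3.25, adjusted p = 9.5e-10), ERRFI1, an inhibitor of EGFR (2.76, adjusted p = 1.7e-08), FOSL1, an AP-1 subunit (2.16), the early-response gene IER3 (2.03) and the transcription factor EGR1 (1.62). EPHA2 (0.96), PHLDA1 (0.76) and CCND1, encoding cyclin D1 (0.58), rose less. The ETS-family genes ETV1 (-1.44) and ETV5 (-0.51) fell, as SPRY1 did. DUSP6, the cytoplasmic ERK phosphatase often measured together with SPRY4, was not called at 6 h (-0.08, adjusted p = 0.352) and was 0.44 higher at 24 h (adjusted p = 5.6e-04). At 24 h 10 genes of the list were higher, 5 lower (MYC, LRIG1, ETV1, CCND1 and ETV5) and 2 not called (EPHA4 and ETV4), where 54.6% of all features were called, 26.5% higher and 28.2% lower.

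**Figure D5:**
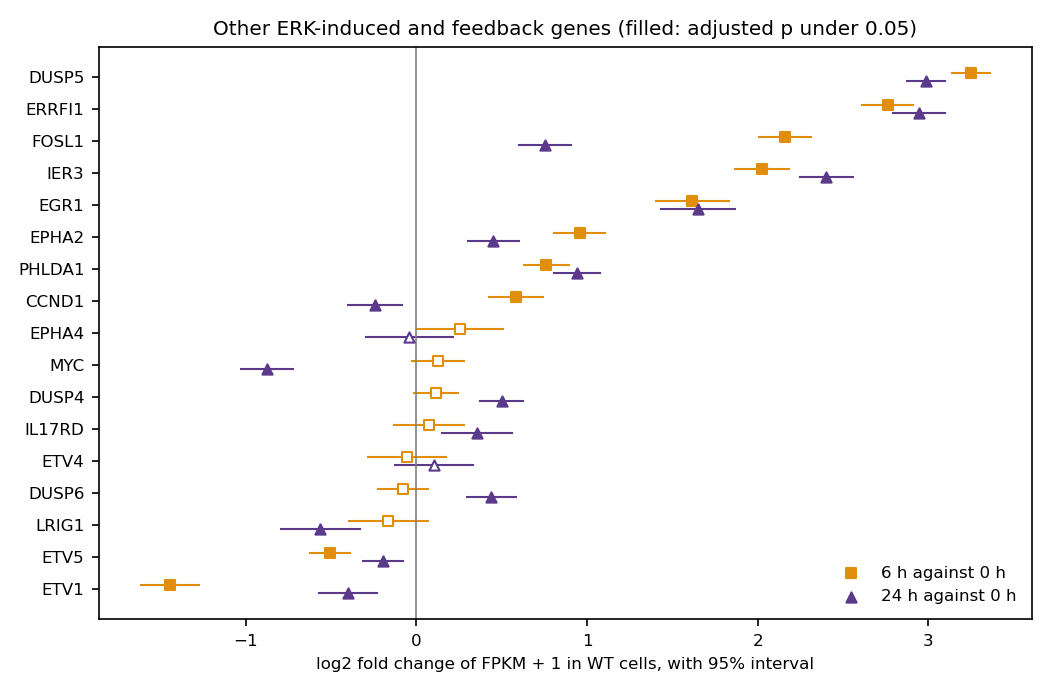
Log2 fold change of FPKM + 1 in WT cells (horizontal axis) for 17 other ERK-induced and feedback genes (vertical axis) at 6 h (squares) and 24 h (triangles) against 0 h, with bars for the 95% interval and filled symbols for an adjusted p under 0.05. DUSP5 and ERRFI1 rose by 2.76 or more at both times, and ETV1 and ETV5 lay below 0 at both.

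In ΔCRE cells 9 of these 17 genes rose and 4 fell at 6 h, where 29.8% of all features were called, and 8 rose and 4 fell at 24 h (41.5%). Against WT cells, none was called at 0 h (1.69%), 5 at 6 h (9.83%) and 5 at 24 h (6.33%). At 6 h EGR1 (0.93, adjusted p = 9.1e-04) and PHLDA1 (0.24) were higher in ΔCRE cells, and ERRFI1 (-0.33), DUSP4 (-0.32) and DUSP5 (-0.26) were lower. At 24 h EGR1 (0.63), DUSP6 (0.46), IER3 (0.32) and PHLDA1 (0.28) were higher, and DUSP5 was lower (-0.24). The other 12 were not called at 24 h, and the median log2 difference of the 17 genes was -0.14.

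Of 14 proteins that bind or regulate Sprouty and SPRED, 5 rose and 1 fell in WT cells at 6 h, where 44.4% of all features were called, and 5 rose and 5 fell at 24 h (54.6%). The count at 6 h is near the background. The genes named next were chosen after their values were seen, except for CAV1. At 6 h the kinase gene TESK1 (0.93), the ubiquitin ligase gene CBL (0.44), MKNK2 (0.30), NEDD4 (0.27) and the phosphatase gene PTPN11 (0.27) rose, and the adaptor gene SH3KBP1 fell (-0.47). At 24 h CBLB (0.60), MKNK1 (0.50), TESK1 (0.39), MKNK2 (0.38) and CBL (0.19) were higher. PPP2CA (-0.42), PTPN11 (-0.32), DYRK1A (-0.31) and NEDD4 (-0.23) were lower, and CAV1, encoding caveolin-1, fell most (254 FPKM at 0 h, 280 FPKM at 6 h and 66.3 FPKM at 24 h, log2 fold change -1.92, adjusted p = 1.9e-07). NF1 and GRB2 were not called at either time. None of the 14 was called between ΔCRE and WT cells at 6 h, where 9.83% of all features were called, or at 24 h (6.33%).

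Of 17 genes of the RAS-ERK core, 14 were tested, and KSR1, RASGRP1 and RASGRP3 were under the filter. In WT cells at 6 h MAP2K1, encoding the kinase MEK1 (0.62, adjusted p = 2.7e-05), SHC1 (0.37) and HRAS (0.28) rose and MAPK3 fell (-0.23), all named after their values were seen. These 4 of 14 are a smaller share than the 44.4% of all features called. At 24 h 2 of the 14 were higher, MAP2K1 (0.56) and SHC1 (0.28), and 2 were lower, against 54.6% of all features called. None of the 14 was called between ΔCRE and WT cells at 6 h, where 9.83% of all features were called, or at 24 h (6.33%). Of 9 receptor tyrosine kinases, 6 were tested, without FGFR2, KDR and PDGFRA. MET (0.66) and EGFR (0.60) rose and FGFR3 (-0.47) and PDGFRB (-0.45) fell at 6 h in WT cells, 4 of 6 against 44.4% of all features. At 24 h MET (0.30) and PDGFRB (0.34) were higher and EGFR (-0.32) and FGFR3 (-0.43) lower, 4 of 6 against 54.6%. In ΔCRE against WT cells at 6 h FGFR3 (0.41, adjusted p = 0.041) and FGFR1 (0.57, adjusted p = 0.00804) were higher, against 9.83% of all features called. None of the receptors was called at 24 h (6.33%). At 0 h FGFR3 was also higher in ΔCRE cells (0.75), which were 1 library there. Results under the alternative settings are not given for the receptors.

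The members differed in which other genes they resembled across the 11 libraries, as measured by Pearson's r of log2(FPKM + 1), given as a description since the libraries share conditions. SPRY1 was most like DENND5B (r = 0.987), BCAR3 (0.985) and FOXRED2 (0.985). SPRY4 was most like SEC61A1 (0.991), GCH1 (0.988) and ATP2B1 (0.984), and SPRY2 like CLCF1 (0.975), UAP1 (0.974) and IRF2BP2 (0.972). SPRED3 was most like SLC39A13 (0.994), G0S2 (0.992) and FAM214B (0.988). SPRED2 was most like CCNT2 (0.988), UTP18 (0.979) and HIPK1 (0.975), and SPRED1 like PTER (0.928), LRRC39 (0.923) and RCBTB2 (0.907). Between members, r was 0.847 for SPRY2 and SPRY4, -0.937 for SPRY1 and SPRY4, and -0.874 for SPRY1 and SPRED3.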

How the data were processed

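Stranded mRNA libraries of WT and ΔCRE MDA-MB-231 cells were sequenced by the authors, who aligned reads to hg19 with TopHat 2.0.12 and made FPKM values per gene with Cufflinks 2.2.1. The submitters' processing notes also name FastQC, cutadapt and Bowtie2. The deposited FPKM table held 24331 features, of which 405 name more than 1 gene. Its gene annotation and scaling between libraries are not given in the sources used here, and 2 column names with a digit in place of the letter H were matched by their title. FPKM depend on the make-up of the whole library, so a few abundant genes can shift all others.

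Values were tested as log2(FPKM + 1) with limma 3.58.1 (R 4.3.3, lmFit and eBayes with trend) on 6 group means over 11 libraries, without replicate 1 of ΔCRE cells at 0 h, for the 11256 features with a mean of at least 1 FPKM. P-values were adjusted by Benjamini-Hochberg over all features tested, with a threshold of 0.05. Fold changes given as -fold are ratios of mean FPKM. Standard errors and 95% intervals are limma's, and the intervals are not adjusted for the number of tests. Relative depth was taken from the modal ratio of values under 0.05 FPKM between libraries. The scripts were tested on simulated data.

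Alternatives were all 12 libraries, pseudocount 0.1, no filter, a mean of at least 5 FPKM, quantile normalization, TPM, separate fits, no trend, a replicate block and leaving out each library. The genes planned for naming were the 6 members, ETS1, the ERK list, other list genes with a called log2 fold change of at least 1, and the 3 features most like each member. Further genes of the pathway lists, with smaller changes, were named after their values were seen. Some genes of the pathway lists are not reported here. Members and lists were chosen with earlier results of these data known.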

Additional observations from a re-analysis of the deposited data

Results flagged for a closer look

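Replicate 1 of ΔCRE cells at 0 h, left out of the tests, held 3497 FPKM of the 10 gut epithelium markers, against 3.38 to 5.30 FPKM in the other 11 libraries, and had the lowest SPRY4 (18.6 FPKM), SPRED2 (7.80 FPKM), SPRED1 (4.08 FPKM), SPRY2 (22.3 FPKM) and SPRED3 (0.584 FPKM) of the 12 libraries. Its part in those levels was not tested.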

How the results depend on the processing

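Among alternatives that kept the 11 libraries, the number of members called moved by over 1.5 times in 4 comparisons, the replicate block aside. In WT cells at 24 h against 0 h it was 3 of the 5 tested at a mean of at least 5 FPKM, where SPRED3 was not tested, and in ΔCRE cells from 6 to 24 h it was 3 after quantile normalization. Between ΔCRE and WT cells it was 0 at 6 h with a mean of at least 5 FPKM, and at 24 h it was 1 with pseudocount 0.1, without a filter and without the trend, and 0 after rescaling to TPM and in the separate fit. In the comparisons given next, fewer of all features were called with all 12 libraries, and when a library of the groups compared was left out. With all 12 libraries the number of members called was 1 for WT at 24 h against 0 h, and 1 for WT and 1 for ΔCRE from 6 to 24 h. The number was 2 for ΔCRE at 6 h and 2 at 24 h against 0 h, and 0 for ΔCRE against WT at 6 and at 24 h. Leaving out 1 library gave 3 to 5 for WT at 24 h against 0 h, 3 to 5 for ΔCRE from 6 to 24 h, 0 to 1 for ΔCRE against WT at 6 h and 0 to 2 at 24 h.

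Correlations of same-numbered deviations were -0.0676 to 0.202 over 10 pairs of groups. They passed the threshold of 0.1 set for pairing in WT 0 h with ΔCRE 24 h (0.202) and WT 24 h with ΔCRE 24 h (0.107). The main fit did not use replicate numbers. A replicate block took the members called between ΔCRE and WT cells at 0 h from 0 to 1 (SPRY4, 0.24, adjusted p = 0.0441) and all features called there from 190 to 655, called SPRED1 in ΔCRE cells from 6 to 24 h (0.20, adjusted p = 0.0432), and turned the SPRED3 difference between genotypes in the change at 24 h from 0.013 to -0.017. It changed no other call of a member. All features called with the block rose from 1107 to 1805 for ΔCRE against WT cells at 6 h and from 712 to 1407 at 24 h. For WT cells at 6 h against 0 h they rose from 4993 to 5929.

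With all 12 libraries, values turned for ΔCRE cells against 0 h (SPRED1 0.015 at 6 h and 0.22 at 24 h, SPRED2 0.51 at 24 h), for ΔCRE against WT at 0 h (SPRY4 -0.54, SPRED1 -0.27), and for the difference between genotypes in the change (SPRY4 0.60 at 6 h and 0.78 at 24 h, SPRED1 0.12 at 6 h). Other values that turned were near 0 and not called. Under TPM these were SPRED2 at 6 h (-0.023 in both genotypes), ΔCRE against WT for SPRED2 (-0.0057 at 6 h, -0.016 at 24 h) and SPRY1 at 24 h (-0.0055), and the SPRED2 difference in change (-0.0096 at 24 h against 0 h, -0.01 from 6 to 24 h). Under quantile normalization they were SPRED2 in WT at 6 h (-0.00040), SPRED2 in ΔCRE against WT at 6 h (-0.0070), SPRED3 in WT from 6 to 24 h (-0.03), and the differences in change at 24 h of SPRY4 (0.016) and SPRED3 (-0.021).

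Leaving out 1 library turned values within these ranges: SPRY2 in WT at 24 h -0.073 to 0.037, SPRED3 in WT from 6 to 24 h -0.025 to 0.064, ΔCRE against WT for SPRED2 -0.098 to 0.060 at 0 h, -0.031 to 0.032 at 6 h and -0.029 to 0.044 at 24 h, and for SPRY1 -0.131 to 0.052 at 6 h and -0.080 to 0.111 at 24 h. For the difference in change at 6 h they were -0.055 to 0.127 for SPRY1 and -0.060 to 0.098 for SPRED2. At 24 h they were -0.0043 to 0.186 for SPRY1, -0.037 to 0.024 for SPRY4, -0.013 to 0.176 for SPRED1, -0.053 to 0.105 for SPRED2 and -0.112 to 0.138 for SPRED3, and from 6 to 24 h -0.040 to 0.150 for SPRY1 and -0.029 to 0.044 for SPRED2. The cause of these changes was not tested.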
